A study of Homo sapiens with 9 samples.

Results

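The genes described here are 10 transcriptional outputs of RAS-ERK signaling in MDA-MB-231 cells, namely DUSP4, DUSP5, DUSP6, SPRY2, SPRY4, SPRED1, SPRED2, ETV4, ETV5 and PHLDA1. They were chosen by gene name as a known group of ERK-induced genes, most of which restrain the pathway. Earlier results of these data were known when they were chosen. All 10 were found among the 61552 genes listed in the RNA-seq files, each in 1 row. MDA-MB-231 is an established triple-negative breast cancer (TNBC) cell line labelled WT, and it was grown in serum-containing DMEM and exposed for 24 h to 2-deoxy-d-glucose (2-DG) at 10 mM or 20 mM, or to phosphate-buffered saline as the 0 mM control. 2-DG is a glucose analogue that enters cells like glucose and blocks glycolysis. Each condition had 3 libraries from the same line, and nothing in the labels says that they came from separate cultures, so the p-values measure the spread between these libraries, which may be technical.

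RAS-ERK signaling carries growth factor signals from receptor tyrosine kinases through RAS, RAF and MEK to the ERK kinases, which enter the nucleus and switch on transcription. Among the first genes switched on are inhibitors of the same pathway. The DUSP phosphatases of this group remove the activating phosphates from ERK, and Sprouty and SPRED proteins act further up, around RAS and RAF. The pathway is known to be constitutively active in MDA-MB-231. The cells here were grown with serum, so whether these feedback genes are transcribed without an added ligand was not tested. Transcript levels of the group are often read as a measure of ERK output, but protein, phosphorylation and phosphatase activity were not measured in these libraries.

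The files hold FPKM values (reads per kilobase of gene length scaled to the library's total reads), from which the library totals of 30974968 to 40843638 reads were recovered. Every member rested on at least 789 reads in every library and passed the filter on low values, along with 16570 genes in all. VIM, CD44 and EGFR, which mark this mesenchymal line, summed to between 336 and 398 FPKM over the 9 libraries. Most of this sum was VIM, which was not called at either dose. CD44 fell from a mean of 69.8 FPKM to 58.3 at 10 mM and 56.6 at 20 mM 2-DG (adjusted p = 0.0209 and 0.00827, limma). EGFR rose, as given further below. Of 5 receptors and epithelial markers of other breast cancer subtypes, ESR1, PGR and CDH1 reached at most 0.00829, 0.0204 and 0.417 FPKM, while EPCAM lay between 2.61 and 4.51 FPKM and ERBB2 between 5.53 and 9.11. Their summed level was 12.3 to 13.9 FPKM in the control, 8.56 to 9.69 at 10 mM and 8.46 to 8.92 at 20 mM 2-DG. CDH1 fell from a mean of 0.365 FPKM to 0.0493 and 0.0686 (adjusted p = 0.000193 and 0.000207, limma) and ERBB2 from 8.81 to 5.91 and 5.76 (adjusted p = 0.000786 and 0.000385, limma), and EPCAM was not called. Of 7 markers of other cell types, 6 stayed under 1 FPKM in every library. The exception was PECAM1, an endothelial adhesion molecule, with a control mean of 1.72 ± 0.259 FPKM (SD, n = 3) that fell to 0.914 ± 0.119 at 20 mM 2-DG (adjusted p = 0.00318, limma); from here on, ± gives the SD over the 3 libraries of a group. The summed level of the 7 markers was 2.58 to 3.08 FPKM in the control. It was 1.81 to 2.15 at 10 mM and 1.51 to 1.86 at 20 mM 2-DG. The part of these marker lists in the results below was not tested. The 10 mM libraries differed most among themselves (Pearson correlation of log2(FPKM + 1) from 0.989 to 0.994, across genes). 10 mM replicate 3 had 31.8% of its summed FPKM in mitochondrial genes, against 25.7% to 27.4% in the other 8 libraries. Bulk libraries cannot tell a change of transcript per cell from a change in the share of cells that carry it.

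The group did not move as one. At both doses of 2-DG the Sprouty genes SPRY2 and SPRY4 rose and the phosphatase gene DUSP4 fell, and at 20 mM the phosphatase gene DUSP5 also rose and the ETS factor gene ETV4 also fell. For DUSP6, SPRED1, SPRED2, ETV5 and PHLDA1 no difference from the control passed the test at either dose. A gene was called at a Benjamini-Hochberg adjusted p under 0.05 from limma's moderated test on log2(FPKM + 1), over all genes tested. By this rule 3 of the 10 genes were called at 10 mM 2-DG, 2 higher and 1 lower, where 29.7% of all genes tested were called, 12.1% higher and 17.5% lower. At 20 mM 2-DG, 5 of the 10 were called, 3 higher and 2 lower, against 37.0% of all genes, 15.4% higher and 21.6% lower. At an unadjusted p under 0.05 there were 5 of the 10 at each dose, against 40.4% and 46.0% of all genes. By adjusted p the share of calls in the group was thus close to that of the transcriptome at 10 mM and above it at 20 mM. At 20 mM the share by unadjusted p was nearer to that of the transcriptome. These differences were not tested, and the call of DUSP5 at 20 mM was lost in 7 of 17 alternative settings, given below. The median log2 fold change of the 10 genes was 0.05 at 10 mM and 0.10 at 20 mM, beside -0.01 and -0.02 over all genes, and their median absolute change was 0.17 and 0.22 beside 0.16 and 0.18. None of the 10 passed the thresholds of the study's methods, an unadjusted p under 0.05 with an absolute log2 fold change over 1, which 1.74% of all genes passed at 10 mM and 2.92% at 20 mM 2-DG.

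**Figure D1:**
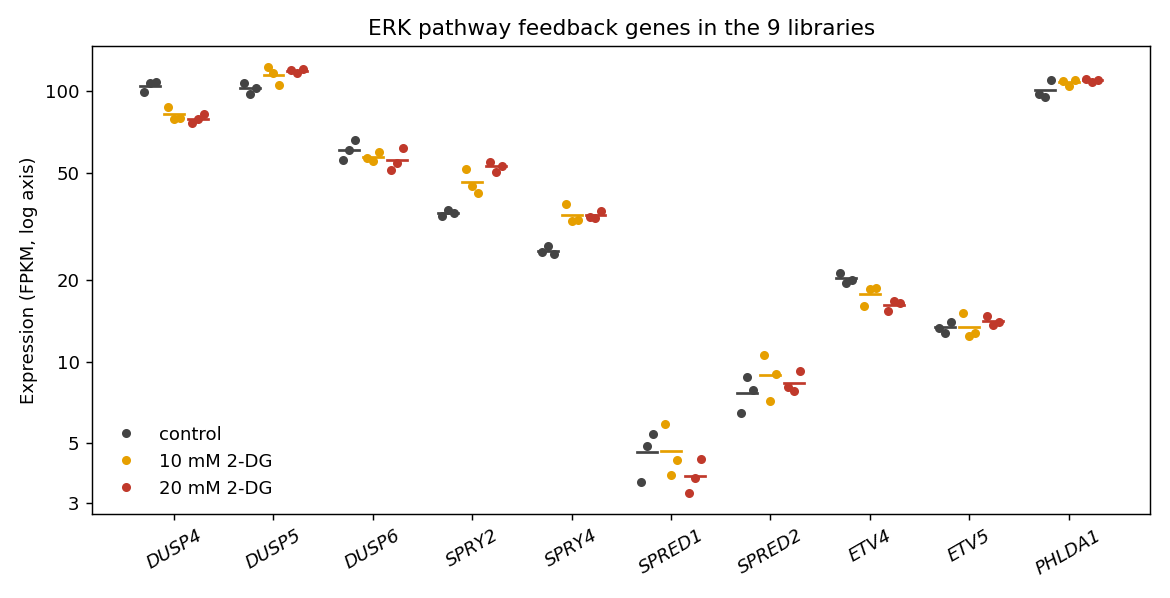
Expression of the 10 ERK pathway feedback genes in each library, in FPKM on a log axis, with 1 point per library, a line at the mean of the 3 libraries, and colors for the control, 10 mM 2-DG and 20 mM 2-DG. The 6 treated libraries of SPRY2 and SPRY4 lie above the control libraries and those of DUSP4 and ETV4 lie below them, while the points of DUSP6, SPRED1, SPRED2 and ETV5 overlap.

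The levels spanned a wide range, in FPKM, which allows genes of different length to be compared. In the control, DUSP4, DUSP5 and PHLDA1 stood highest at 105 ± 4.85, 103 ± 4.67 and 101 ± 7.98 FPKM, and their libraries overlapped, so these 3 genes were not ordered among themselves. Below them came DUSP6, SPRY2, SPRY4, ETV4, ETV5, SPRED2 and SPRED1, each apart from its neighbour in the order in every control library. Averaged over the 9 libraries, the level of DUSP5 was at or above that of 98.1% of the genes tested, and that of SPRED1 at or above that of 60.7%. At 20 mM 2-DG the order had DUSP5 first at 119 ± 2.56 FPKM, then PHLDA1 at 109.7 ± 0.977, and DUSP4 next at 79.3 ± 3.29, with no overlap between these neighbours. SPRY2, at 52.7 ± 2.26 FPKM, overlapped DUSP6 at that dose, at 55.6 ± 5.32.

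The Sprouty genes showed the largest rises of the group. SPRY2 and SPRY4 encode inhibitors that are phosphorylated after growth factor stimulation and block the signal between the receptor and RAF. Their promoter regions, from 250 bases before to 50 bases after an annotated start, are shown because both genes rose at both doses. They were taken from RefSeq (GRCh38.p14), minus strand, written 5′ to 3′, and capitals mark a match to a motif searched. The window of SPRY4 lies at chr5:142324198-142324497, and the outermost and innermost of 3 SPRY2 windows at chr13:80341077-80341376 and chr13:80339610-80339909.
SPRY4: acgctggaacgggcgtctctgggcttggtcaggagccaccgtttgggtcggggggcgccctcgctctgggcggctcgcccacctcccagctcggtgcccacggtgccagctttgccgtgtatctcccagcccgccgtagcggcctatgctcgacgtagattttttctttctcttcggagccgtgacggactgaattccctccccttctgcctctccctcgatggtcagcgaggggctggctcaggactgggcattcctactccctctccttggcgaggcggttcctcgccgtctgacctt
SPRY2 outer start: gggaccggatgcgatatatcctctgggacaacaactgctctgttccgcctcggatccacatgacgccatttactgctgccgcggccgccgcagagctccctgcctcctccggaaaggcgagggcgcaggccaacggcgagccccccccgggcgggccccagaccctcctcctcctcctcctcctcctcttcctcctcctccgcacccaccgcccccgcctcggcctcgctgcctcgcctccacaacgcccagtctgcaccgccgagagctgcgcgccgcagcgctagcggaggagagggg
SPRY2 inner start: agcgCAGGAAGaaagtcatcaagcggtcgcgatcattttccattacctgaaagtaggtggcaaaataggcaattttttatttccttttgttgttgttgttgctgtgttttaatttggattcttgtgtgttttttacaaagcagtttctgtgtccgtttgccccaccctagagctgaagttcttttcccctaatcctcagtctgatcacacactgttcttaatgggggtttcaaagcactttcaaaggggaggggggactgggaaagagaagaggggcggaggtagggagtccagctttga
RefSeq windows were at hand for 6 of the 10 members (DUSP6, SPRY2, SPRY4, SPRED1, SPRED2 and PHLDA1), 9 windows in all. They were searched on both strands for the ETS motifs CCGGAAG and CAGGAAG, the AP-1 motif TGANTCA, the CRE motif TGACGTCA and the serum response element, motifs of factors that act downstream of ERK or of cAMP. The first ETS motif had no match and the second had 1 match each in SPRY2, SPRED1 and SPRED2, against 10.7% and 12.8% of 27305 promoters of the same length. The AP-1 motif matched 2 times, both in an inner window of SPRED2, and occurs in 7.76% of the promoters. CRE and the serum response element, which occur in 1.98% and 1.29%, had no match. The shares over all promoters counted 1 window per gene, while members were searched in all of theirs, 3 for SPRY2 and 2 for SPRED2. The matches of SPRY2 and SPRED2 lay in inner windows, and their outer windows had none. The members' matches and these shares are thus not like for like, and the matches describe these windows only.

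SPRY2 (ENSG00000136158, GRCh38 chromosome 13, 80335976 to 80340951, minus strand) stood at 34.6, 36.4 and 35.6 FPKM in the control libraries, at 51.7, 44.6 and 42.1 at 10 mM and at 54.8, 50.3 and 53.1 at 20 mM 2-DG. All 6 treated libraries lay above all 3 control libraries. The log2 fold change was 0.36 at 10 mM (SE 0.075, adjusted p = 0.00574, limma) and 0.56 at 20 mM 2-DG (SE 0.075, adjusted p = 0.000353, limma), and the mean was 48.4% higher at 20 mM. A change at least as large was seen for 12.1% of all genes at that dose. 10 mM replicate 1, the highest of its group for 7 of the 10 members, gave the highest SPRY2 value there, and without it the log2 fold change at 10 mM was 0.28 (adjusted p = 0.00827, limma).

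SPRY4 (ENSG00000187678, chromosome 5, 142310427 to 142326455, minus strand) was at 25.4, 26.8 and 25.1 FPKM in the control, 38.4, 33.2 and 33.4 at 10 mM and 34.4, 34.1 and 36.0 at 20 mM 2-DG. It was higher in each of the 6 treated libraries than in any control library, by nearly the same amount at both doses. The log2 fold change was 0.42 at 10 mM (SE 0.066, adjusted p = 0.00120, limma) and 0.42 at 20 mM 2-DG (SE 0.066, adjusted p = 0.000921, limma). SPRED1 (chromosome 15, 38252326 to 38357249, plus strand) and SPRED2 (chromosome 2, 65310851 to 65432637, minus strand) encode Sprouty-related proteins that bring the RAS-inactivating protein neurofibromin to the membrane. SPRED1 ranged from 3.60 to 5.43 FPKM in the control, from 3.82 to 5.90 at 10 mM and from 3.29 to 4.37 at 20 mM 2-DG, and SPRED2 from 6.44 to 8.76, from 7.14 to 10.6 and from 7.81 to 9.23 FPKM. The ranges overlapped for both genes. The 95% interval of the log2 fold change at 20 mM ran from -0.59 to 0.13 for SPRED1 and from -0.19 to 0.43 for SPRED2. A rise of the size seen for SPRY4 was outside the interval of SPRED1 and inside that of SPRED2, and a fall of that size was inside the interval of SPRED1.

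The MAP kinase phosphatases went in different directions. DUSP4, a nuclear phosphatase of ERK and of the stress kinase JNK (ENSG00000120875, chromosome 8, 29333064 to 29350668, minus strand), was at 99.4, 107 and 108 FPKM in the control, at 87.6, 79.1 and 80.0 at 10 mM and at 76.0, 79.2 and 82.6 at 20 mM 2-DG. No treated library reached the lowest control library. The log2 fold change was -0.35 at 10 mM (SE 0.063, adjusted p = 0.00262, limma) and -0.40 at 20 mM 2-DG (SE 0.063, adjusted p = 0.000868, limma). DUSP5, a nuclear phosphatase specific for ERK (ENSG00000138166, chromosome 10, 110497838 to 110511544, plus strand), was at 107, 97.8 and 103 FPKM in the control, 123, 117 and 105 at 10 mM and 120.2, 116 and 121 at 20 mM 2-DG. The 20 mM libraries lay above the control, and 1 library at 10 mM lay within its range. The log2 fold change was 0.16 at 10 mM (adjusted p = 0.0993, limma) and 0.22 at 20 mM 2-DG (SE 0.067, adjusted p = 0.0288, limma). The call of DUSP5 at 20 mM was lost with a wider filter that kept every gene above 0 (adjusted p = 0.0582, limma), and, with adjusted p from 0.0602 to 0.1001, without control replicate 2, control replicate 3 or any 1 of the 20 mM libraries. At 10 mM DUSP5 was called only without 10 mM replicate 3 (adjusted p = 0.0345, limma), the library with the highest mitochondrial share, among the fits without 1 library and the other alternatives.

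DUSP6, the cytoplasmic phosphatase of ERK and a common readout of the pathway (ENSG00000139318, chromosome 12, 89347232 to 89353271, minus strand), was at 55.5, 60.7 and 66.3 FPKM in the control, 56.7, 55.1 and 59.9 at 10 mM and 51.1, 54.1 and 61.5 at 20 mM 2-DG. The groups overlapped. The 95% interval of its log2 fold change ran from -0.27 to 0.10 at 10 mM and from -0.32 to 0.06 at 20 mM 2-DG. In GENCODE release 29, 40.5% of the exon bases of DUSP6 are shared with AC024909.2 on the opposite strand, which reached at most 0.488 FPKM. Whether the counting used the strand is not given in the sources used here.

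**Figure D2:**
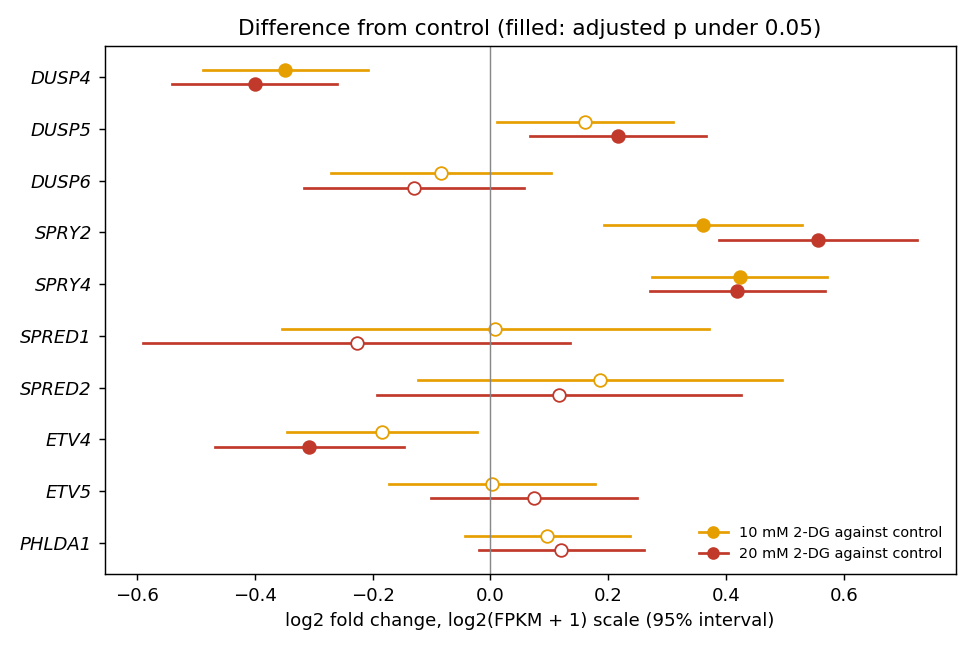
log2 fold change of each feedback gene against the control on the log2(FPKM + 1) scale, with its 95% interval, for 10 mM and 20 mM 2-DG; filled points have an adjusted p under 0.05 in limma's test. SPRY2 and SPRY4 lie to the right of 0 and DUSP4 to the left at both doses, and DUSP5 and ETV4 are filled at 20 mM only, a difference between doses that did not pass the test.

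ETV4 and ETV5 encode closely related ETS transcription factors of the PEA3 group, which are induced by ERK and carry its signal to further genes. ETV4 (ENSG00000175832, chromosome 17, 43527844 to 43579620, minus strand) was at 21.4, 19.6 and 20.0 FPKM in the control, 16.0, 18.7 and 18.7 at 10 mM and 15.4, 16.8 and 16.5 at 20 mM 2-DG. Every treated library was below every control library. The log2 fold change was -0.18 at 10 mM, which did not pass the test (adjusted p = 0.0820, limma), and -0.31 at 20 mM 2-DG (SE 0.072, adjusted p = 0.00796, limma). ETV5 (ENSG00000244405, chromosome 3, 186046308 to 186110318, minus strand) was at 13.3, 12.8 and 14.04 FPKM in the control, 15.2, 12.5 and 12.7 at 10 mM and 14.7, 13.7 and 14.1 at 20 mM 2-DG, with overlapping groups. The 95% interval of its log2 fold change at 20 mM ran from -0.10 to 0.25. ETV4 shares 68 exon bases with DHX8 on the opposite strand.

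PHLDA1, a pleckstrin homology-like protein induced by ERK and by cell stress (ENSG00000139289, chromosome 12, 76025447 to 76033932, minus strand), was at 97.4, 95.6 and 110.2 FPKM in the control, 109.2, 105 and 109.8 at 10 mM and 110.6, 108.6 and 109.8 at 20 mM 2-DG. Control replicate 3 lay at the level of the treated ones. The log2 fold change at 20 mM was 0.12 (95% interval -0.02 to 0.26, adjusted p = 0.165, limma), and without control replicate 3 it was 0.18 (adjusted p = 0.0358, limma). Up to 9.65% of its exon bases are shared with 1 antisense transcript, AC011611.4, which reached at most 1.36 FPKM.

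Between the doses no member was called. The libraries of 10 mM and 20 mM 2-DG overlapped for all 10 genes, while 11.9% of all genes did not overlap (4.71% higher, 7.15% lower at 20 mM), and 0.00604% of all genes passed the study's thresholds, none of them a member. By adjusted p, limma called 0 of the 10 and 0 of the 16570 genes (0%), as did limma-voom on the recovered reads. At an unadjusted p under 0.05 there was 1 gene, SPRY2, with a log2 fold change of 0.19 (95% interval 0.03 to 0.36, adjusted p = 0.652, limma), where 6.88% of all genes had such a p. Against the shared control, 4 of the 10 genes had libraries at 10 mM that did not overlap it (SPRY2, SPRY4, DUSP4 and ETV4), where 40.5% of all genes did not (17.8% higher, 22.7% lower), and 5 of the 10 at 20 mM 2-DG (these 4 and DUSP5), where 53.3% did not (23.3% higher, 29.9% lower). These shares are near those of the transcriptome.

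Ratios within a library do not depend on how libraries are scaled, and relatives were also compared by their ratio. The pairs were chosen after the values of these genes were seen, so their p-values are no separate support for the changes. The ratio of DUSP5 to DUSP4 was 1.08, 0.910 and 0.949 in the control libraries, 1.40, 1.47 and 1.32 at 10 mM and 1.58, 1.47 and 1.47 at 20 mM 2-DG. All treated libraries were above all control libraries, and DUSP5 stood above DUSP4 in each of them and in 1 control library. The mean log2 ratio was higher by 0.52 at 10 mM and by 0.62 at 20 mM 2-DG (two-sided exact permutation test, p = 0.1 each, the smallest that 3 against 3 libraries allow). SPRY1, a Sprouty gene outside the group, had a control mean of 8.78 ± 1.37 FPKM and fell to 5.31 ± 0.581 and 5.10 ± 0.537 at the lower and the higher dose. The ratio of SPRY2 to SPRY1 was 3.67 to 4.80 in the control, 8.54 to 8.88 at 10 mM and 8.94 to 12.0 at 20 mM 2-DG. That of SPRY4 to SPRY1 was 2.59 to 3.53 in the control and 6.05 to 7.55 at 20 mM 2-DG. The groups did not overlap, and the mean log2 ratio of SPRY2 to SPRY1 was higher by 1.35 at 20 mM (exact permutation p = 0.1). The ratio of ETV5 to ETV4 was 0.624 to 0.701 in the control, 0.669 to 0.946 at 10 mM and 0.814 to 0.957 at 20 mM 2-DG, without overlap between the control and 20 mM (exact permutation p = 0.1) and with overlap at 10 mM (exact permutation p = 0.4). Over the 12 comparisons of 4 ratios the smallest adjusted p was 0.15 (exact permutation test). With 3 against 3 libraries none could have passed an adjusted p under 0.05.

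**Figure D3:**
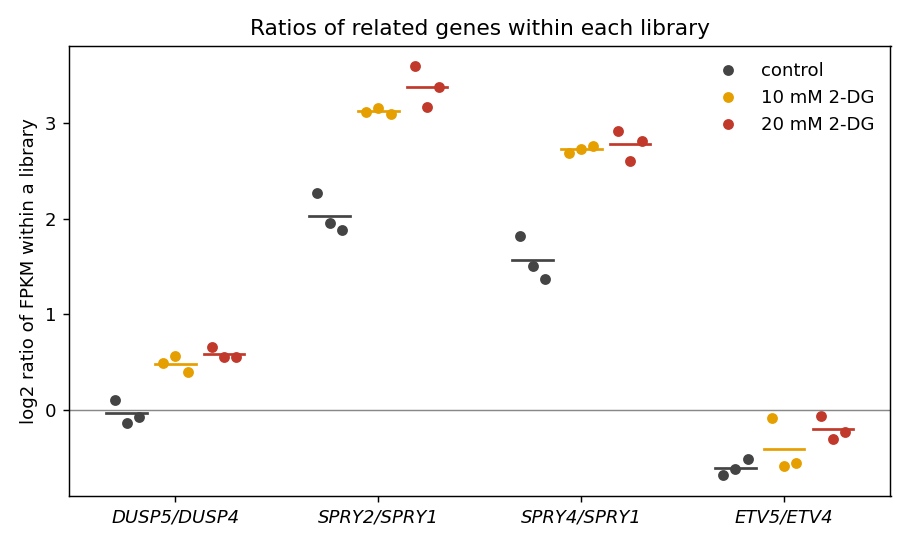
log2 ratio of the FPKM values of related genes within each library, with 1 point per library and a line at the mean, for the control, 10 mM 2-DG and 20 mM 2-DG. The treated libraries lie above the control libraries for DUSP5/DUSP4, SPRY2/SPRY1 and SPRY4/SPRY1; for ETV5/ETV4 the control overlaps with 10 mM and not with 20 mM.

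The other genes of the pathway were taken from 3 lists written from general knowledge. Earlier results of these data were known by then, so the shares of calls in the lists are no separate support. Of 20 genes of the RAS-ERK cascade itself, from adaptor proteins to ERK and its substrate kinases, all 20 passed the filter. At 10 mM 2-DG 1 was called higher and 3 lower, and at 20 mM 4 higher and 3 lower, which is 20% and 35% of the list beside 29.7% and 37.0% of all genes, with median log2 fold changes of 0.05 and 0.01. MAPK3, the gene of ERK1, fell from 21.9, 19.3 and 19.4 FPKM in the control to 11.7, 13.2 and 12.6 at 10 mM and 10.8, 10.8 and 10.9 at 20 mM 2-DG. The treated libraries lay below all control libraries, with a log2 fold change of -0.84 at 20 mM (SE 0.067, adjusted p = 1.27e-05, limma), further from 0 than any of the 10 feedback genes. RPS6KA1, which encodes the ERK substrate kinase RSK1, fell by 0.45 on the log2 scale at 20 mM (adjusted p = 0.000548, limma), and GRB2, an adaptor between receptors and RAS, fell by 0.16 (adjusted p = 0.0253, limma). The adaptor gene SHC1 rose by 0.31 on the log2 scale, the MEK2 gene MAP2K2 by 0.25, and the RAF genes BRAF and ARAF by 0.25 and 0.21 (adjusted p = 0.0129, 0.0367, 0.0462 and 0.0485 in this order, limma). The number of cascade genes called higher at 20 mM fell to 1 without control replicate 3 or any 1 of the 20 mM libraries, and to 2 without control replicate 2 or 10 mM replicate 3.

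Of 13 other ERK-responsive genes, 2 were called higher and 2 lower at each dose, 30.8% of the list beside 29.7% and 37.0% of all genes. EGR1, an immediate early transcription factor, was at 30.3, 29.8 and 23.1 FPKM in the control, 60.0, 48.6 and 57.6 at 10 mM and 44.8, 35.7 and 44.2 at 20 mM 2-DG. It was above the control at both doses, with log2 fold changes of 0.98 and 0.57 (adjusted p = 0.000367 and 0.00585, limma). MYC, a growth-promoting transcription factor, rose by 0.31 and 0.49 on the log2 scale (adjusted p = 0.00182 and 8.88e-05, limma). CCND1 encodes cyclin D1, which takes cells into the cell cycle. It fell from 77.4 ± 5.77 FPKM to 55.2 ± 6.44 at 10 mM and 49.2 ± 2.83 at 20 mM. HBEGF, a ligand of the EGF receptor, fell from 34.8 ± 1.26 to 24.4 ± 1.45 and 23.8 ± 0.225. At 20 mM both genes passed the test against the control (adjusted p = 0.000436 and 8.67e-05, limma). Between the doses neither was called (adjusted p = 0.819 and 0.980, limma). EPHA2, an ephrin receptor, averaged 164 ± 11.9 FPKM without 2-DG and 158 ± 6.57 at 20 mM (adjusted p = 0.611, limma), and ETV1, another PEA3 factor, 8.06 ± 1.24 and 5.92 ± 0.486 (adjusted p = 0.0662, limma).

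**Figure D4:**
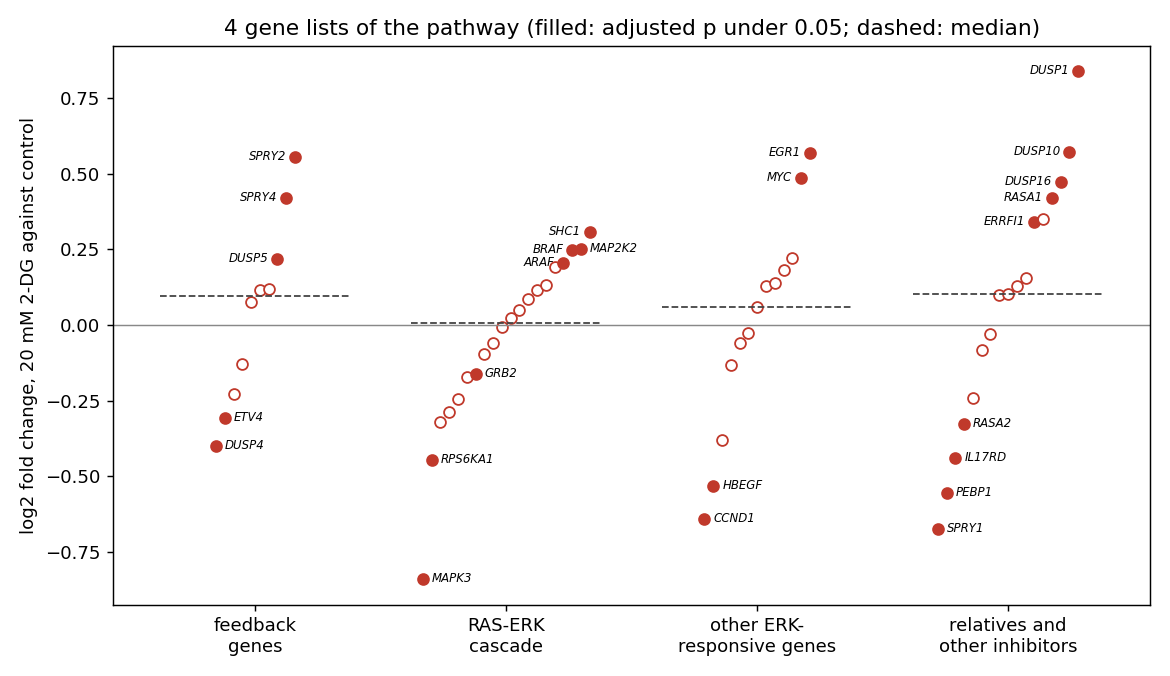
log2 fold change at 20 mM 2-DG against the control for the tested genes of the 4 lists, sorted within each list; filled and named points have an adjusted p under 0.05 in limma's test and dashed lines are list medians. Called genes stand on both sides of 0 in every list, from MAPK3 at -0.84 to DUSP1 at 0.84.

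Of 19 relatives and other inhibitors, 17 passed the filter; DUSP9 and SPRY3 had at most 6 reads in any library. At 10 mM 2-DG 3 were called higher and 3 lower, and at 20 mM 5 higher and 4 lower, which is 35.3% and 52.9% of those tested beside 29.7% and 37.0% of all genes. The 5 higher genes were 3 with every gene above 0 kept, and also 3 without control replicate 1 or without 20 mM replicate 3. The phosphatase genes DUSP1, DUSP10 and DUSP16 rose, and DUSP2, DUSP7 and DUSP8 were not called (log2 fold changes of -0.03, 0.10 and 0.13 at 20 mM). Which kinases their products act on was not tested. DUSP1 was at 53.8, 49.2 and 51.3 FPKM in the control, 96.4, 88.7 and 74.4 at 10 mM and 106, 90.3 and 83.3 at 20 mM 2-DG. The treated libraries of both doses lay above all control libraries, and those of the doses overlapped. Its log2 fold change at 20 mM against the control was 0.84 (SE 0.107, adjusted p = 0.000244, limma). At that dose DUSP10 went from 8.80 ± 0.768 to 13.6 ± 0.819 FPKM and DUSP16 from 4.85 ± 0.193 to 7.12 ± 0.218 (adjusted p = 0.000765 and 0.00500, limma). ERRFI1, a feedback inhibitor of the EGF receptor, and RASA1, which inactivates RAS, rose by 0.34 and 0.42 on the log2 scale at 20 mM (adjusted p = 0.0175 and 0.0340, limma). SPRY1 fell by 0.67, PEBP1, which binds and inhibits RAF, by 0.56, and IL17RD, which holds ERK in the cytoplasm, by 0.44 (adjusted p = 0.00172, 0.000230 and 0.00457, limma), and the remaining lower gene was RASA2, a relative of RASA1 named after its value was seen, at -0.33 (adjusted p = 0.0305, limma). EGFR, the receptor at the head of the pathway and a marker of this line, was between 11.4 and 16.8 FPKM in the control, 17.0 and 33.6 at 10 mM and 24.1 and 29.4 at 20 mM 2-DG, and rose at both doses (adjusted p = 0.0248 and 0.0103, limma).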

How the data were processed

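RNA of MDA-MB-231 cells (control, 10 mM and 20 mM 2-DG, 3 libraries each) was prepared with a Qiagen kit and sequenced on an Illumina NovaSeq. The authors deposited FPKM values, 1 file per library. The submitters' processing notes name GRCh38; the aligner, counting tool and annotation release are not given in the sources used here. Gene positions come from GENCODE release 29 of GRCh38, which may not be the authors' annotation. The members and gene lists were chosen with earlier results of these data known, and the list genes named by size of change and call at 20 mM, beside 9 genes fixed by name, of which some are not reported here. The ratios of relatives were added after the values were seen.

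Library totals were taken as the number that makes FPKM times exon length whole, and the reads of a gene from GENCODE's length or, failing that, from the shortest length at which the 9 values were whole (tolerance 0.001 reads), which gave reads for 32804 of 32806 genes above 0. They are not the authors' counts. A gene was tested if 3 or more libraries held 10 or more of its reads (scaled to the median total) and all libraries together 15 or more, 16570 genes, with limma 3.58.1 in R 4.3.3 on log2(FPKM + 1), with a trend, all 9 libraries in 1 fit, no replicate block and Benjamini-Hochberg adjustment; intervals are 95%. The pseudocount of 1 understates changes of low genes. The scripts were tested on simulated data. The chi-square per gene between replicate libraries was 4.66 to 56.6 (sampling noise alone gives about 1), so no library was a copy. Scaling, filters, pseudocount, threshold, samples and libraries were varied as alternatives.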

Additional observations from a re-analysis of the deposited data

How the results depend on the processing

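The rises of SPRY2 and SPRY4 and the fall of DUSP4 at both doses, and the fall of ETV4 at 20 mM 2-DG, kept their direction and their call in 16 of the 17 alternatives, and were lost under the thresholds of the study's methods, where the effect sizes fall short by construction. With those thresholds 0 genes of each of the 4 lists passed in either direction at either dose, and over all genes 96 higher and 192 lower at 10 mM and 160 and 324 at 20 mM, instead of 2011, 2903, 2544 and 3582. Between the doses they gave 1 gene higher. No result reversed. DUSP5 at 20 mM was the least stable member: its call was lost in 7 of 17 alternatives.

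Of cascade genes called higher at 10 mM (1 as reported), there were 0 with a pseudocount of 0.1, with every gene above 0, and in a fit of the 2 groups alone, and 2 with median-ratio scaling or limma-voom. Leaving out 1 library gave 0 to 2. At 20 mM (4) there were 2 with a pseudocount of 0.1, 1 with every gene above 0, and 1 to 3 without 1 library. Cascade genes called lower at 20 mM (3) were 5 in a fit of the 2 groups alone and 2 to 5 without 1 library. Relatives and other inhibitors called higher were 3 to 5 at 10 mM (3) without 1 library, and at 20 mM (5) 3 with every gene above 0 and 3 to 6 without 1 library. Over all genes tested, keeping every gene above 0 gave 3 of 32806 genes lower between the doses, none of them in the lists. Fits without 1 library gave 0 to 1 of all genes higher and 0 to 3 lower between the doses. Why these counts moved was not tested.

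Deviations from the group mean had correlations from -0.406 to 0.293 between same-numbered libraries of different groups. Between differently numbered ones they ran from -0.230 to 0.521. With means of only 3 libraries, these correlations cannot decide whether the numbers pair the samples. With the replicate block, the members' calls were 2 higher and 1 lower at 10 mM and 3 higher and 2 lower at 20 mM, where 26.0% and 33.5% of all genes were called in the same fit, and cascade genes called higher were 0 at 10 mM and 1 at 20 mM. Only 3 libraries a group limit the precision, and depth does not, with at least 789 reads for every member in every library.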
